A study of Rattus norvegicus with 17 samples.

Results

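The cells described here are 183 single sensory neurons of the rat dorsal root ganglion (DRG) that carried both Clmp, an adhesion molecule of cell junctions, and Kit, the receptor tyrosine kinase for stem cell factor. They were chosen from 830 kept cells, those with at least 2000 detected genes and 20000 unique molecular identifiers (UMIs, which count cDNA molecules). A member had at least 30 CPM (a gene's UMIs scaled to the same total in every cell) of Clmp and of Kit. It also had under 300 CPM of Sst plus Nppb, peptides of itch neurons, and under 30 CPM of Trpm8, a cold-activated channel. The measured Clmp, Kit, Sst, Nppb and Trpm8 counts therefore set the choice, and they are described below without a test.

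All cells came from adult naive male Sprague-Dawley rats, with no genetic change and 1 group in the labels, DRG neurons. L4-L5 ganglia of both sides were dissociated, and neurons were plated and picked singly by mouth pipette for a modified Smart-seq2 protocol that counts transcript 3' ends. The protocol texts name a plating of 15 min and one of 72 h, and at least 5 rats at each time point. Which time and which animals a batch holds is not given, so batches are the units of replication here. The p-values weigh the difference between classes within batches against its variation from batch to batch, which may be technical. Picking by hand also means that a share describes picked cells and not the ganglion.

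Peptidergic nociceptors are small and medium sensory neurons that detect damaging stimuli and release neuropeptides, among them CGRP (calcitonin gene-related peptide, from Calca) and substance P (from Tac1). They sense heat, pressure and chemical signals of damaged tissue. KIT is known from mast cells, melanocytes and germ cells, and some nociceptors carry it too, where its ligand stem cell factor acts on pain sensitivity and axon growth.

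Of the kept cells 277 had Clmp at 30 CPM or more and 305 had Kit, and 208 had both. Of those 208, 25 were left out: 10 by the limit on Sst plus Nppb and 16 by that on Trpm8, with 1 cell over both limits. Median levels over the 183 members were 136 CPM for Clmp (10th to 90th percentile 57.8 to 275) and 205 CPM for Kit (44.3 to 462). Many members thus lay well above the threshold, but 27 were below 45 CPM in at least 1 of the 2 genes. Members went down to 20121 UMIs, and in such shallow cells 1 UMI of a gene is over 30 CPM. Membership, and the shares of cells at 30 CPM given below, can rest there on 1 molecule. For the lower of the 2 genes, the 5 members nearest to the threshold had 30.6 to 32.7 CPM. The 5 cells nearest to it from below had 25.7 to 29.6 CPM.

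**Figure D1:**
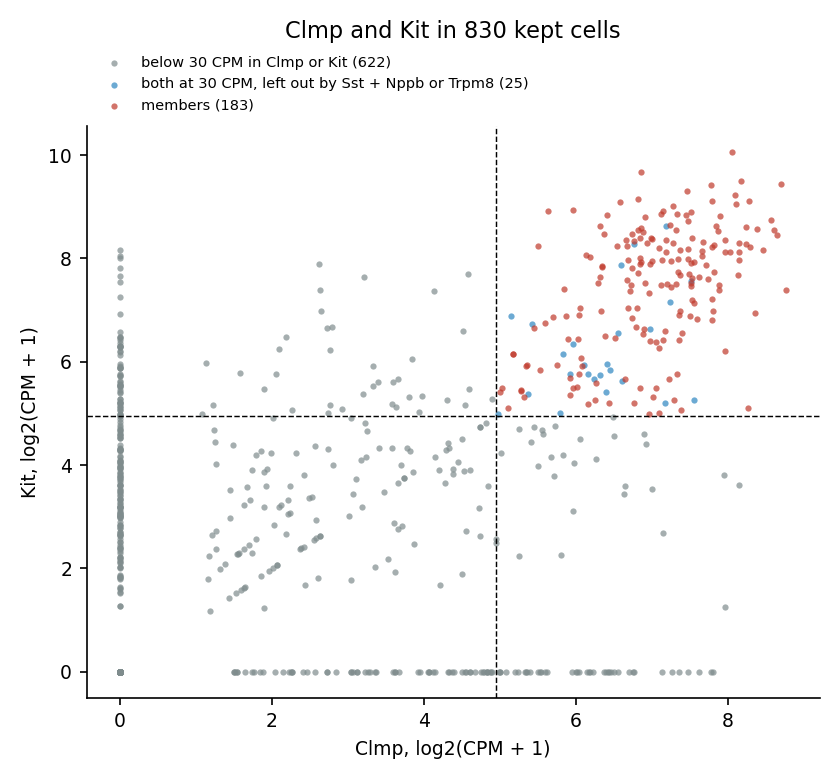
Clmp (horizontal) and Kit (vertical) in each of the 830 kept cells, both as log2(CPM + 1); dashed lines mark 30 CPM. The 183 members (red) fill the upper right, with 25 cells (blue) that had both genes but too much Sst plus Nppb or Trpm8, and the cells around the lines form no empty gap.

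Members made up 22.0% of kept cells (exact Clopper-Pearson 95% interval 19.3 to 25.0%, counting error only). Over 16 batches the share averaged 21.4% ± 9.75 (SD), with a highest value of 38.6%. Batch 24 stood apart with 0 members among 30 kept cells, which allows a share of up to 10% by the limit of 3 counts and 11.6% by the exact Clopper-Pearson interval. No cell of that batch reached 30 CPM of Clmp or of Kit, and its median depth of 179732.5 UMIs lay between those of members and of other cells in all. Calca was at 500 CPM or more in 40.0% of its cells, against 43.6 to 83.3% in the other batches. The other 15 batches held 5 to 22 members each, and the lowest share among them was 11.9%. Only those 15 batches enter the comparisons.

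Members were read more deeply than other kept cells, with a median of 235438 UMIs against 171475. Within batches the median log2 UMI count of members was higher by 0.40 ± 0.47 (SD, n = 15), in 11 of 15 batches (two-sided sign-flip permutation test, p = 0.0039). Among cells with at least 50000 UMIs that difference was 0.11 (permutation p = 0.301). Depth moved with CPM inside the group as well: over the 339 genes at 500 CPM or more in members, the median Spearman correlation of CPM with UMIs per cell was -0.52. For the 1225 genes at 100 to 200 CPM it was 0.34. The same 96 cell labels recur in the libraries, and no 2 cells of different libraries had identical counts.

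The labels name only DRG neurons, and peptidergic markers are described here. Such genes helped to define the class from which Clmp and Kit were picked, so the direction of Calca is not independent evidence. Summed over the members of a batch, Calca ran from 1349 to 2830 CPM, with a median of 1918 CPM over 15 batches. The other kept cells of the same batches ran from 410 to 1231 CPM, with a median of 657 CPM, so the groups did not overlap. Calca was higher in members by 1.48 ± 0.11 on the log2 scale (SE, adjusted p = 7.92e-10), in 15 of 15 batches. Differences below are log2 fold changes from the same fit, each with its SE, and values in CPM are levels. In this comparison 13.4% of the 11632 genes tested were called higher and 15.1% lower at an adjusted p under 0.05, 28.4% in all. That background is for the edgeR fit on the sums of all cells. The share of all genes whose batch sums did not overlap between the groups was not counted, so a lack of overlap describes single genes only. Where counts against all other kept cells are given from another fit below, 11.3% of all genes tested were higher and 11.6% lower with depth-matched cells, 8.46% and 9.0% with each cell thinned to 20000 UMIs, and 9.1% and 14.9% with limma on mean CPM per cell.

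The noxious heat and capsaicin channel Trpv1, often used to mark peptidergic nociceptors, was sparse. It ran from 1.96 to 56.6 CPM (median 8.08) in members and from 3.04 to 23.5 CPM (median 5.2) in the others. The difference of 0.50 ± 0.30 did not pass the test (adjusted p = 0.239), and 20 members (10.9%) reached 30 CPM, against 6.80% of other cells. No Trpv1 UMI was counted in 118 of 183 members.

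Kit also marks mast cells and melanocytes, so their markers were summed in the same way. The 11 measured mast cell markers came to a median of 4.97 CPM in members (0 to 32.2 CPM) and 10.5 CPM in other cells (6.13 to 33.7 CPM). Cpa3, Cma1 and Fcer1a, which define mast cells, had no UMI in members. The 5 measured melanocyte markers had medians of 1.48 and 1.76 CPM. Of 12 macrophage and leukocyte markers, Ptprc, C1qb, Cd163 and Tyrobp were at 0 in members; the list summed to a median of 26.9 CPM in members and 37.4 CPM in other cells, and of 4 tested Laptm5 was higher and Csf1r lower. The fibroblast gene Pdgfra and the smooth muscle gene Myh11 were also higher, at 6.36 ± 3.78 and 10.4 ± 5.2 CPM in members (SD, n = 15) and 2.37 and 6.35 CPM in other cells. Laptm5 was no longer called without batch 22 or 31, nor Myh11 without any of batches 20, 25, 27, 28-1, 28-3, 29, 32 and 35 or with depth-matched cells. The part of these genes' cell types in the results was not tested. Markers of satellite glia and Schwann cells, which wrap DRG neurons, summed to a median of 1208 CPM in members (963 to 1314 CPM) and 1200 CPM in other cells (1121 to 1711 CPM), led by Pmp22. Of the 12 glial markers tested 0 were higher and 2, Glul and Pmp2, were lower in members.

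Genes of other sensory neuron types were summed in the same way. The 8 measured genes of non-peptidergic neurons came to a median of 257 CPM in members and 507 CPM in other cells, led by P2rx3, and the 7 of large neurofilament neurons to 315 and 297 CPM, led by Nefh. Of 6 tested genes of non-peptidergic neurons 6 were lower in members, and of 4 tested genes of tyrosine hydroxylase and C-LTMR neurons 4 were lower. Gfra2, a receptor for neurturin, was at 2.74 ± 2.65 CPM (SD, n = 15) in members and 23.2 ± 9.61 CPM in the others (log2 difference -3.15 ± 0.28, adjusted p = 1.79e-08). The other kept cells include all those types. The list of large neurofilament neurons had 1 gene higher, Nefh, and 4 lower of 7 tested, among them the trkC receptor Ntrk3 (-1.41 ± 0.49, adjusted p = 0.0363).

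The genes given with the choice, Ramp3, Asic3, Gda and Fcgrt, were picked from these cells and are described only. Clmp summed to 157 ± 25.6 CPM in members (SD, n = 15) and 15.0 ± 8.50 CPM in the other cells, and Kit to 234 ± 82.1 and 19.4 ± 8.76 CPM. Asic3, an acid-sensing channel of nociceptors and muscle afferents, ran from 143 to 509 CPM (median 328) in members and from 10.7 to 165 CPM (median 58.1) in other cells. Fcgrt, the neonatal Fc receptor that recycles antibodies, ran from 124 to 242 CPM (median 186) and from 14.7 to 57.2 CPM (median 31.3). Gda, a guanine deaminase, ran from 26.3 to 161 CPM (median 96.3) and from 1.28 to 33.7 CPM (median 13.8). Ramp3, a partner that turns the calcitonin receptor-like receptor into an adrenomedullin receptor, ran from 11.2 to 174 CPM (median 70.5) and from 2.53 to 45.2 CPM (median 20.8). All 6 genes were higher in members in 15 of 15 batches, and only Clmp, Kit and Fcgrt did not overlap between the groups. For Clmp and Kit the choice of cells itself set the groups apart, and the share of all genes without overlap was not counted.

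Cell by cell the 4 genes were not shared by all members. Fcgrt reached 30 CPM in 154 members (84.2%) and Asic3 in 153 (83.6%), while Gda did so in 106 (57.9%) and Ramp3 in 104 (56.8%). Among other kept cells the shares were 24.3% for Fcgrt, 37.1% for Asic3, 14.2% for Gda and 15.5% for Ramp3. Cells with Clmp but not Kit (51 cells) had Fcgrt at 30 CPM in 39.2% and cells with Kit but not Clmp (69 cells) in 42%. Both sets lay between members and the rest, but their median depths, 101121 and 85343 UMIs, were under that of members. The part of depth in these shares was not tested.

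The promoters of Asic3 and Gda are shown because, of the 6 RefSeq promoters found for these markers and Calca, only these held the core letters bound by RUNX factors, which set nociceptor subtypes. A promoter here is 250 bases before to 50 after the start in RefSeq, build GRCr8, while the counts used Rnor_6.0; Clmp had no entry. The letters TGTGGT were searched on both strands (ACCACA on the other), and 17.3% of the 33469 promoters in the table held them. In the stretches below, both read along the gene's own strand, capitals mark the match. They lie at chr4:11657529-11657574 on the minus strand for Asic3, with the match starting 187 bases before the start, and at chr1:228409067-228409112 on the minus strand for Gda, 191 bases before it.
Asic3: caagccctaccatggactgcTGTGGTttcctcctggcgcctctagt
Gda: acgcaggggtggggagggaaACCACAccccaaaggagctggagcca
A match is a run of letters and no measured binding. Runx1 itself was at 105 ± 47.9 CPM in members and 117 CPM in other cells (log2 difference -0.25 ± 0.16, adjusted p = 0.249).

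Among neuropeptides the members carried more Tac1, Cck, Adcyap1 and Gal and less Calcb, Trh, Crh and Nts. Of 17 tested neuropeptide genes 5 were higher (Adcyap1, Cartpt, Cck, Gal and Tac1) and 7 lower (Crh, Nmu, Nts, Pdyn, Penk, Trh and Vip), with a median log2 difference of 0.04 beside -0.03 over all genes tested. Tac1 summed to 299 to 916 CPM (median 434) in members and 70.5 to 411 CPM (median 187) in the others, an overlap of the ranges. It was higher in 15 of 15 batches, by 1.36 ± 0.12 (adjusted p = 2.52e-08), and 182 of 183 members had 30 CPM or more. Cck, the precursor of cholecystokinin, was at 171 to 519 CPM (median 360) against 23.9 to 164 CPM (median 119), with no overlap, and was higher by 1.71 ± 0.11. Adcyap1, the precursor of the vasodilator peptide PACAP, was at 487 to 962 CPM (median 627) against 115 to 418 CPM (median 303), also without overlap (1.26 ± 0.14, adjusted p = 7.48e-07).

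Gal, the precursor of galanin, which injured sensory neurons make in large amounts, was abundant in both groups. It ran from 1144 to 4162 CPM (median 2050) in members and from 756 to 1709 CPM (median 1315) in other cells, and was higher by 0.63 ± 0.09 (adjusted p = 2.23e-05) in 14 of 15 batches. Inside the group Gal went down with depth (Spearman correlation -0.49): the 45 members under 100000 UMIs had a median of 3077 CPM and the other 138 a median of 1908 CPM. Calcb, the second CGRP gene, went the other way from Calca. It ran from 17.7 to 245 CPM (median 60.4) in members and from 25.1 to 418 CPM (median 89.0) in the others, and was lower, with a log2 difference of -0.80 ± 0.19 (adjusted p = 0.00289) in 12 of 15 batches. Without the batch term this difference was -0.86 and no longer passed.

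The peptides that were lower include Trh, the thyrotropin-releasing hormone precursor, at 3.58 to 111 CPM (median 36.7) in members and 3.75 to 352 CPM (median 186) in other cells (-2.29 ± 0.12, adjusted p = 1.47e-11). Crh, the corticotropin-releasing hormone precursor, was at 3.09 ± 3.09 and 30.9 ± 22.1 CPM, Nts, the neurotensin precursor, at 8.50 ± 17.8 and 33.7 ± 15.5 CPM. Both were lower, by -3.29 ± 0.23 and -3.09 ± 0.42. Nts is among the listed itch neuron genes, and cells over the limit on Sst plus Nppb stayed among the other cells only. Its direction here is therefore not independent of the choice. Against other Calca cells and P2rx3 cells (both below), held to the same limit, Nts was also called lower.

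Receptor genes of CGRP were at low levels in members. Calcrl, the shared receptor subunit, was at 2.25 to 33.0 CPM (median 6.73) in members and 2.88 to 11.1 CPM (median 5.98) in other cells and did not pass (0.42 ± 0.29, adjusted p = 0.297). With members paired to other cells of like depth it was higher by 1.41 (adjusted p = 0.0215). Ramp1, which makes Calcrl a CGRP receptor, averaged 0.0667 CPM in members and Calcr, the calcitonin receptor, 0.119 CPM. Ramp2 was at 12.4 ± 5.55 CPM in members and 11.4 ± 2.99 CPM in others, and the accessory protein gene Crcp at 138 ± 15.3 and 140 ± 18.8 CPM, neither passing the test (adjusted p = 0.858 and 0.831). Iapp had no UMI in members, and Adm and Adm2, the precursors of the Ramp3 ligands adrenomedullin and adrenomedullin 2, averaged 0.388 and 0.711 CPM. Ramp1, Calcr, Iapp, Adm and Adm2 had too few UMIs to be tested.

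Genes that load and cut peptides in dense-core vesicles were mostly higher. Of 14 tested granin and processing genes 8 were higher (Chgb, Cpe, Pam, Pcsk1, Pcsk2, Scg2, Scg5 and Syt4) and 1, the vesicle chaperone Dnajc5, was lower; the median log2 difference was 0.41. Scg2, secretogranin II, ran from 280 to 883 CPM (median 454) in members and from 111 to 462 CPM (median 215) in other cells (1.15 ± 0.14, adjusted p = 1.56e-06, 15 of 15 batches). Pam, the enzyme that amidates peptides such as substance P, ran from 304 to 616 CPM (median 377) and from 156 to 257 CPM (median 212) and did not overlap (0.86 ± 0.06, adjusted p = 7.03e-10). With depth-matched cells 9 genes of this list were higher and 1 was lower.

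**Figure D2:**
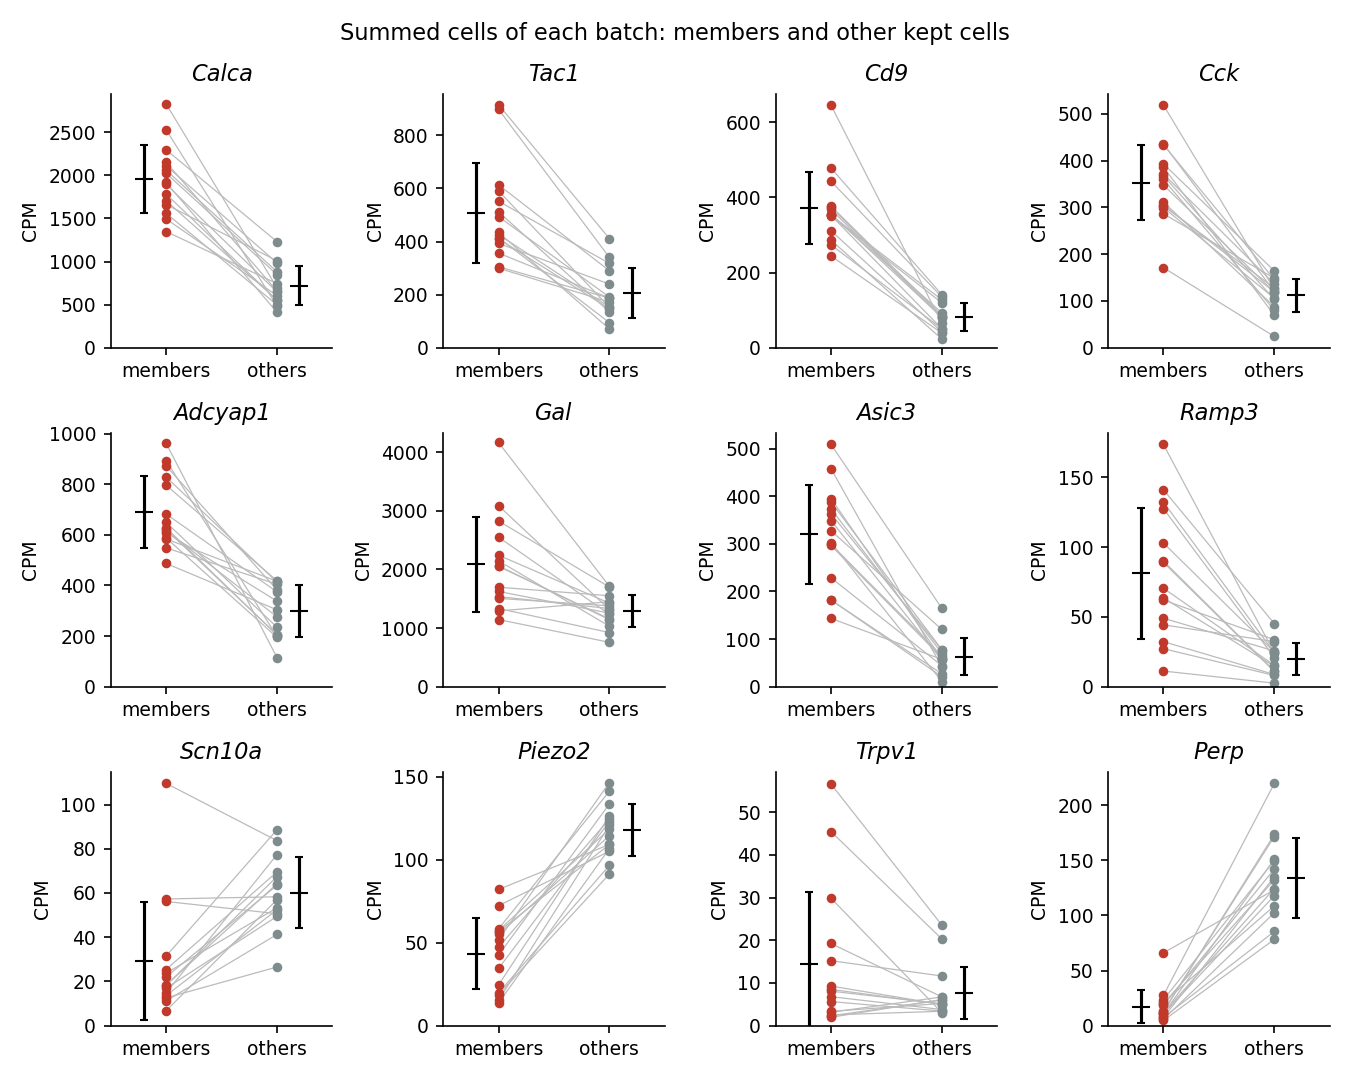
Summed expression in each of 15 batches (CPM, linear axes from 0) for 12 genes, members (red) and all other kept cells (grey) of the same batch joined by a line; bars give the mean ± SD. Calca, Cd9, Cck and Adcyap1 separate the groups in every batch, Gal, Trpv1 and Scn10a overlap, and Piezo2 and Perp are lower in members in 15 of 15 batches.

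Of 19 tested growth factor receptors 4 were higher, among them Gfra3, Lifr and Ngfr, and 5 lower (Gfra2, Il6st, Ntrk3, Ret and Sort1). Beside this, 13.4% of all genes tested were higher and 15.1% lower. Ngfr, the p75 neurotrophin receptor, was at 125 ± 38.1 and 83.5 ± 20.2 CPM (0.54 ± 0.13, adjusted p = 0.00353). Gfra3, the artemin receptor, ran from 323 to 649 CPM (median 448) in members and from 192 to 397 CPM (median 283) in the others (0.65 ± 0.09, adjusted p = 5.09e-06). Ret, the signalling subunit of GDNF-family receptors, was at 118 ± 39.6 and 157 ± 30.1 CPM (-0.47 ± 0.11, adjusted p = 0.0018).

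Around KIT itself, 6 of 26 tested signalling genes were higher (Akt1, Kitlg, Mapk3, Pik3cb, Pik3r1 and Stat3) and 6 lower, among them Cbl, Grb2, Lyn, Ptpn6 and Src. The shares over all genes tested were 13.4% higher and 15.1% lower. Kitlg, the gene of stem cell factor itself, ran from 44.4 to 112 CPM (median 82.7) in members and from 28.3 to 78.5 CPM (median 48.9) in other cells. It was higher by 0.66 ± 0.13 (adjusted p = 4.65e-04) in 14 of 15 batches, so the member sums held transcripts of receptor and ligand. Pik3cb, a catalytic subunit of the PI3 kinase that KIT recruits, was higher by 0.81 ± 0.13. Lyn, a Src-family kinase downstream of KIT in mast cells, was at 2.10 ± 2.80 and 6.14 ± 2.54 CPM and lower, with a log2 difference of -2.04 ± 0.49 (adjusted p = 0.00328).

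Channels and receptors that sense acid were higher. Beyond Asic3, the 4 tested members of that list held 3 that were higher and 0 that were lower. Asic1, another acid-sensing channel subunit, ran from 23.1 to 159 CPM (median 79.8) in members and from 11.1 to 67.9 CPM (median 52.8) in other cells (0.92 ± 0.19, adjusted p = 6.5e-04, 12 of 15 batches). Kcnk3, an acid-inhibited leak potassium channel, was at 25.7 ± 16.4 and 5.19 ± 3.21 CPM (2.25 ± 0.36, adjusted p = 5.15e-05). With Clmp and Kit at 60 CPM or more Asic1 was higher by 0.46 and did not pass.

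Of 16 tested TRP, Piezo and purinergic genes 0 were higher and 6 were lower, among them P2rx3, P2ry2, Piezo2, Tmem120a and Trpv2. Piezo2, the main mechanically gated channel of touch, ran from 13.7 to 82.0 CPM (median 47.3) in members and from 91.3 to 146 CPM (median 118) in other cells, with no overlap (-1.56 ± 0.17, adjusted p = 3.13e-07). P2rx3, an ATP-gated channel, ran from 112 to 326 CPM (median 219) and from 221 to 465 CPM (median 321). It was lower, with a log2 difference of -0.61 ± 0.10 (adjusted p = 5.81e-05), yet 171 of 183 members had 30 CPM or more. Trpa1, a channel for irritants, was at 11.6 ± 10.2 CPM in members and 7.33 CPM in others and did not pass (adjusted p = 0.528).

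Genes of sodium channels and their partners were more often lower than higher, with a median log2 difference of -0.67. Of 13 tested 1 was higher, the partner Fgf13. Lower were 7, the partner Fgf12 and the channel subunits Scn10a, Scn11a, Scn1a, Scn3a, Scn3b and Scn4b. Scn10a, which encodes the tetrodotoxin-resistant channel NaV1.8 of nociceptors, ran from 6.71 to 110 CPM (median 18.3) in members and from 26.5 to 88.6 CPM (median 58.3) in other cells. The highest value came from batch 23, and the gene was lower in 13 of 15 batches (-1.30 ± 0.21, adjusted p = 4.67e-05). Scn4b, a beta subunit tied to resurgent current, ran from 10.6 to 66.9 CPM (median 20.5) and from 55.2 to 157 CPM (median 128) (-2.34 ± 0.17, adjusted p = 8.76e-10). Fgf13, an intracellular partner of NaV channels, was at 211 ± 32.9 and 160 ± 48.1 CPM (0.43 ± 0.08, adjusted p = 2.8e-04). Scn9a, which encodes NaV1.7, was at 226 ± 59.2 and 245 CPM and did not pass (adjusted p = 0.137).

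Of 35 tested potassium and HCN channel genes 6 were higher and 8 lower, and with depth-matched cells 4 and 5 of 30. Over all genes tested 13.4% were higher and 15.1% lower, and 11.3% and 11.6% with depth-matched cells. The counts of this list are not read as a trait of the members. Kcnq5, a subunit of the M-current, ran from 27.6 to 92.4 CPM (median 50.8) in members and from 9.31 to 27.4 CPM (median 18.9) in others, with no overlap (1.65 ± 0.16, adjusted p = 7.21e-08). Kcnk2, the stretch- and lipid-gated leak channel TREK-1, was at 30.5 ± 17.6 and 8.71 ± 5.92 CPM (1.86 ± 0.22). Kcna1, a delayed-rectifier subunit, was at 36.4 ± 18.5 and 107 ± 27.6 CPM and lower, with a log2 difference of -1.65 ± 0.18 (adjusted p = 4.24e-07). Kcnk18, the leak channel TRESK, was at 0.197 ± 0.321 and 6.63 ± 3.79 CPM (-5.08 ± 0.44).

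Of 12 tested calcium channel genes 4 were higher (Cacna1b, Cacna1e, Cacna2d1 and Cacnb3) and 3 lower, and with depth-matched cells 2 and 2 of 11. Over all genes tested 13.4% were higher and 15.1% lower, and 11.3% and 11.6% with depth-matched cells. These calcium channel counts are not read as a trait of the members. Cacna2d1, the alpha2delta subunit to which gabapentin binds, ran from 480 to 898 CPM (median 635) in members and from 279 to 434 CPM (median 355) in other cells, with no overlap (0.75 ± 0.06, adjusted p = 4.24e-09). Cacna1b, the N-type channel of transmitter release, was at 95.8 ± 29.3 and 72.3 ± 17.5 CPM (0.39 ± 0.09, adjusted p = 0.00282).

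Receptors for inflammatory mediators split. Of 22 tested 5 were higher (Bdkrb2, Crlf2, Lpar1, Ptgir and Tnfrsf1a) and 12 lower, with a median log2 difference of -0.89; with depth-matched cells 6 were higher and 5 lower of 16 tested. Ptgir, the prostacyclin receptor, ran from 190 to 357 CPM (median 255) in members and from 88.8 to 248 CPM (median 154) in the others (0.69 ± 0.08, adjusted p = 9.02e-07, 15 of 15 batches). Bdkrb2, the bradykinin B2 receptor, was at 27.0 ± 8.20 and 10.1 ± 4.48 CPM (1.44 ± 0.17), also in 15 of 15 batches. Lower were Htr4, a serotonin receptor, at 1.75 ± 2.52 and 21.0 ± 7.01 CPM (-3.82 ± 0.46), and the lysophosphatidic acid receptor Lpar3 (-3.15 ± 0.27), while its relative Lpar1 was higher (1.98 ± 0.32, adjusted p = 6.75e-05). Osmr, the oncostatin M receptor of itch neurons, was lower, with a log2 difference of -2.45 ± 0.40. Cells over the limit on Sst plus Nppb stayed among the other cells only, so this direction of Osmr is not independent of the choice. Against other Calca cells and P2rx3 cells (both below), held to the same limit, Osmr was also called lower.

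Receptors that inhibit sensory neurons were higher in 4 and lower in 2 of 10 tested genes. Npy1r, the neuropeptide Y receptor Y1, ran from 227 to 497 CPM (median 297) in members and from 61.3 to 170 CPM (median 86.9) in other cells, with no overlap (1.69 ± 0.13, adjusted p = 1e-09). Galr1, a galanin receptor, ran from 12.9 to 51.2 CPM (median 18.9) and from 0.478 to 16.2 CPM (median 4.03) (2.46 ± 0.27, adjusted p = 4.45e-07). It reached 30 CPM in 55 members (30.1%) and in 4.64% of other cells. Gabbr1, a GABA-B receptor subunit, was at 222 ± 64.7 and 167 ± 35.4 CPM (0.39 ± 0.07), and Drd2, the dopamine D2 receptor, at 0.477 ± 0.706 and 6.0 ± 3.80 CPM (-3.78 ± 0.56).

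Of 35 tested transcription factors of sensory subtypes 6 were higher (Bcl11a, Bcl11b, Klf7, Neurod1, Pou4f3 and Zeb2) and 15 lower. Pou4f3, a POU-domain factor of sensory neurons, ran from 37.3 to 110 CPM (median 65.2) in members and from 14.3 to 53.4 CPM (median 24.9) in others (1.35 ± 0.16, adjusted p = 7.5e-07). Its relative Pou4f2 was lower, at 2.34 ± 2.66 and 15.8 ± 5.37 CPM (-2.96 ± 0.35). Bcl11a, a zinc-finger repressor, was at 14 ± 12.2 and 1.87 ± 1.22 CPM (2.84 ± 0.33, 15 of 15 batches), with its highest value, 53.0 CPM, in batch 23. Zeb2, a repressor of the SMAD pathway, was at 45 ± 17.1 and 19.1 ± 5.68 CPM (1.20 ± 0.14). Onecut2 was at 19.4 ± 14.3 and 49.1 ± 10.9 CPM (-1.53 ± 0.19, adjusted p = 1.81e-06), and the LIM factor Isl1 was lower, with a log2 difference of -0.76 ± 0.16 (adjusted p = 0.00109).

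Since the series' title asks about axon growth capacity of sensory neuron subtypes, genes tied to regeneration were read as a list. Of 41 tested 14 were higher and 7 lower (median 0.11). Atf3, a transcription factor switched on by axon injury, was at 805 ± 131 CPM in members and 655 CPM in other cells (0.30 ± 0.06, adjusted p = 6.82e-04), so both groups carried it. Gap43, a growth cone protein, ran from 1412 to 2332 CPM (median 1745) and from 1255 to 1914 CPM (median 1516) (0.26 ± 0.05, adjusted p = 5.16e-04). Larger differences were those of Csf1, below, and Myc, at 99.2 to 277 CPM (median 177) and 56.0 to 134 CPM (median 98.6) (0.98 ± 0.10, adjusted p = 7.51e-08). Lower were Anxa1, an anti-inflammatory annexin, at 49.7 to 264 CPM (median 125) and 359 to 844 CPM (median 555) with no overlap (-2.32 ± 0.16), the laminin receptor subunit Itga7 (-2.07 ± 0.19) and Ankrd1 (-1.30 ± 0.28). The balance moved with the processing: 8 were higher and 9 lower on mean CPM per cell, and 5 and 5 of 33 with each cell thinned to 20000 UMIs. Gap43 stood at a median of 3811 CPM in the 45 members under 100000 UMIs and at 1748 CPM in the other 138.

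Axon and filament genes gave 8 higher and 7 lower of 28 tested, with depth-matched cells 5 and 4 of 24. Beside this, 13.4% of all genes tested were higher and 15.1% lower, and 11.3% and 11.6% with depth-matched cells. Calb1, the calcium buffer calbindin, ran from 134 to 400 CPM (median 256) in members and from 39.8 to 103 CPM (median 62.4) in others, with no overlap (1.94 ± 0.14, adjusted p = 5.75e-10). Nefh, the heavy neurofilament of myelinated axons, ran from 164 to 375 CPM (median 276) and from 155 to 340 CPM (median 224), and Prph, the peripherin of small neurons, from 1096 to 2049 CPM (median 1489) and from 941 to 1739 CPM (median 1144). Both passed (0.23 ± 0.07, adjusted p = 0.0219, and 0.37 ± 0.06, adjusted p = 4.54e-05), and neither did with thinned cells (0.07 and 0.08). Fxyd2, a sodium pump regulator, was lower, with a log2 difference of -1.61 ± 0.14 with no overlap of the groups, while the pump's beta subunit Atp1b1 was higher by 0.82 ± 0.22 (adjusted p = 0.0075).

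Of 34 tested adhesion and junction genes 8 were higher and 13 lower, with depth-matched cells 6 and 7 of 27. The shares over all genes tested were 13.4% higher and 15.1% lower, and 11.3% and 11.6% with depth-matched cells. Cd9, a tetraspanin, ran from 244 to 646 CPM (median 355) in members and from 22.7 to 141 CPM (median 80.9) in others, with no overlap (2.31 ± 0.14, adjusted p = 5.59e-11). Ncam1, the neural cell adhesion molecule, was at 297 ± 64.6 and 169 ± 34.6 CPM (0.81 ± 0.08). Several junction genes were lower. Perp, a desmosome protein, ran from 4.71 to 66.0 CPM (median 12.7) in members and from 78.3 to 220 CPM (median 132) in other cells (-3.17 ± 0.19, adjusted p = 5.59e-11). F11r, the junctional adhesion molecule A, was at 4.14 ± 4.4 and 24.4 ± 8.86 CPM (-2.88 ± 0.32), and Cd24 was lower, with a log2 difference of -1.09 ± 0.12.

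Genes of cholesterol synthesis and uptake were higher in 15 and lower in 2 of 28 tested, with a median log2 difference of 0.29. Each step was small. Msmo1, a sterol oxidase, ran from 359 to 645 CPM (median 434) in members and from 224 to 424 CPM (median 352) in others (0.46 ± 0.05, adjusted p = 8.15e-07, 15 of 15 batches). Hmgcs1, an early synthase of the pathway, was at 428 ± 110 and 294 ± 66.5 CPM (0.54 ± 0.08), Fdft1, squalene synthase, at 322 ± 61.1 and 228 ± 32.6 CPM (0.49 ± 0.07). The 2 lower genes were Stard4, a sterol carrier (-1.93 ± 0.33), and Insig2. On thinned cells 11 were higher and 0 lower of 20 tested.

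The purine list, read because of Gda, held 3 higher and 6 lower of 20 tested, and 1 and 6 with depth-matched cells. Shares over all genes tested were 13.4% and 15.1%, and 11.3% and 11.6% with depth-matched cells. Acpp, an acid phosphatase that makes adenosine on nociceptors, was at 94.4 ± 40.3 and 246 ± 33.4 CPM (-1.46 ± 0.11, adjusted p = 1.03e-09), and Nt5e, which does the same, was lower, with a log2 difference of -0.71 ± 0.18. The list around Fcgrt held 4 higher and 4 lower of 14 tested, beside the same 13.4% and 15.1% of all genes tested. Higher were Calr, Canx, Ifitm2 and Pdia3, and lower were Ifitm3, RT1-A2, RT1-S3 and Tap1. RT1-A2, an MHC class I gene, was at 178 ± 69.2 and 270 ± 49.0 CPM (-0.66 ± 0.11), and the peptide transporter Tap1 was lower, with a log2 difference of -1.08 ± 0.19. Reads of RT1 genes may be split among near-identical copies.

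Of 16 tested retinoid and secreted protein genes 4 were higher and 6 lower. Rbp4, the plasma retinol carrier, ran from 2.42 to 289 CPM (median 117) in members and from 4.77 to 52.7 CPM (median 26.0) in the others (2.30 ± 0.32, adjusted p = 1.04e-05), higher in 13 of 15 batches. Crabp1, which binds retinoic acid, was at 47.1 ± 40.0 and 3.65 ± 3.88 CPM (3.75 ± 0.41), and 50 members held it at 30 CPM or more while 90 had no UMI of it. Clu, the secreted chaperone clusterin, was higher by 0.90 ± 0.07. Immediate-early and stress genes held 3 higher and 3 lower of 18 tested, near the 13.4% and 15.1% of all genes tested. Fos was at 6.7 and 21.7 CPM and not past the test (adjusted p = 0.303). Of 11 pan-neuronal genes 4 were higher and 0 lower, among them Elavl3, Mapt and Snap25.

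**Figure D3:**
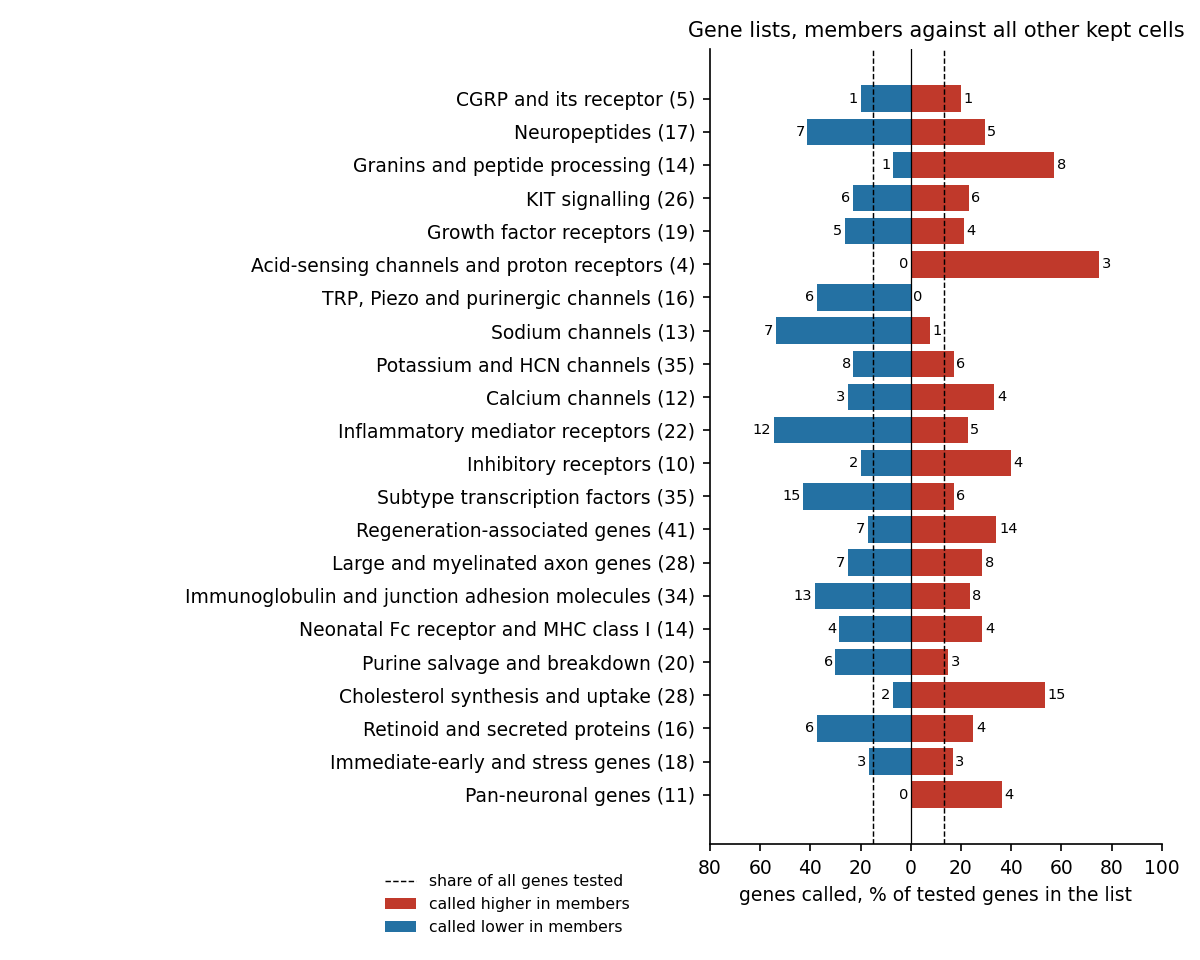
Share of each list's tested genes (their number in brackets) called higher (red, to the right) or lower (blue, to the left) in members than in all other kept cells, with the number of genes at each bar and dashed lines at the shares over all genes tested. In this comparison granins, acid sensing and cholesterol genes have more members called higher, sodium channels and inflammatory mediator receptors more called lower.

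Over all genes, those named by size of difference, called and at a mean of 50 CPM or more in the higher class, were mostly outside those lists. Ptchd1, a patched-domain membrane protein, ran from 13.7 to 114 CPM (median 40.9) in members and from 1.31 to 15.7 CPM (median 6.84) in other cells (2.85 ± 0.31, adjusted p = 2.86e-07). Csf1, the macrophage growth factor that injured sensory neurons release, was at 9.87 to 118 CPM (median 42) and 0.955 to 17.1 CPM (median 10.7) (2.54 ± 0.32, adjusted p = 2.71e-06), higher in 15 of 15 batches. Slc5a7, the choline transporter, was at 123 ± 33.7 and 28.0 ± 14.5 CPM with no overlap (2.26 ± 0.18), and Cyp1b1, a cytochrome that hydroxylates steroids and retinoids, at 244 ± 75 and 60.5 ± 34.1 CPM (2.17 ± 0.19). The others of the 10 highest were Ifitm2, Gpx3, Tnfaip6, Cd9, Rbp4 and Ccn3, at 2.05 to 2.46. Tnfaip6, a hyaluronan-binding protein of inflamed tissue, was high in 13 of 15 batches, from 10.1 to 337 CPM.

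On the lower side the largest differences under the same rule were those of Stfa2l1, Ctla2a and Gzmbl3, whose gene families hold near-identical copies, so that their levels are uncertain (-3.67, -3.65 and -3.47). Anxa8, an annexin, followed at 2.24 to 74.7 CPM (median 10.3) in members and 69.9 to 195 CPM (median 129) in others (-3.41 ± 0.23, adjusted p = 1.94e-10). Tmem45b, a membrane protein, was at 20.4 ± 12.3 and 154 ± 44.3 CPM with no overlap (-3.04 ± 0.16), Tesc, a calcium-binding protein, at 11.4 ± 7.89 and 83.2 ± 26.0 CPM (-2.97 ± 0.28) and Camk4, a calmodulin kinase of the nucleus, at 8.36 ± 4.64 and 60.4 ± 17.9 CPM (-2.93 ± 0.20). Epcam, an epithelial adhesion molecule, was lower, with a log2 difference of -2.94 ± 0.27 and Cyp4f39 by -3.12 ± 0.20.

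Members were next set against 2 narrower classes, each without Clmp, Kit, Sst plus Nppb and Trpm8 at the same limits. One was 141 other Calca cells (Calca at 500 CPM or more) and the other 276 P2rx3 cells (P2rx3 at 200 CPM or more), and 94 cells were in both. These comparisons share the member sums, and their values are given side by side only. Against other Calca cells 732 genes were higher (7.91%) and 830 lower (8.97%) of 9253 tested, 16.9% in all. Against P2rx3 cells 1611 were higher (14.8%) and 1738 lower (16.0%) of 10878, 30.8% in all. Depth differed here too, with medians of 95392 UMIs in other Calca cells and 243511.5 in P2rx3 cells. With pairs of cells of like depth the first comparison had 60 pairs in 9 batches and called 714 genes, 4.37% of those tested higher and 3.97% lower.

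Several of the differences above also passed in both narrower comparisons. Tac1 was higher by 1.16 ± 0.25 (adjusted p = 0.0018) against other Calca cells and by 2.32 ± 0.21 against P2rx3 cells. For Cck the values were 1.65 ± 0.15 and 2.07 ± 0.14, and for Npy1r 1.75 ± 0.24 and 2.21 ± 0.20. Scn10a was lower, with a log2 difference of -0.97 ± 0.25 (adjusted p = 0.009) and -1.66 ± 0.19, and Piezo2 by -1.35 ± 0.26 and -1.75 ± 0.18. Calcb was lower, with a log2 difference of -1.42 ± 0.33 (adjusted p = 0.0031) and -0.76 ± 0.21, so that members had less of the second CGRP gene than the cells chosen for the first.

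Acid sensing held 3 higher and 0 lower of 3 tested against other Calca cells, and 4 and 0 of 4 against P2rx3 cells, where the proton receptor Gpr4 also passed. Cholesterol genes were higher in 12 and lower in 1 of 25, and in 18 and 2 of 27. Inhibitory receptors were higher in 4 and lower in 0 of 6, and in 4 and 2 of 8. Of the receptors for inflammatory mediators 3 were higher and 2 lower of 11 (median 0.38) against other Calca cells, and 5 and 8 of 17 (median 0.08) against P2rx3 cells. Of the regeneration genes 4 were higher and 11 lower of 36 against other Calca cells (7 and 4 of 34 with depth-matched cells), and 13 and 5 of 39 against P2rx3 cells. Gal did not pass against other Calca cells (0.22 ± 0.12, adjusted p = 0.225) but did with depth-matched cells (0.73, adjusted p = 1.549e-04), and it was higher by 0.75 ± 0.09 against P2rx3 cells.

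By the size rule, which asks for 50 CPM in the higher class, the 5 genes furthest up from other Calca cells were Tnfaip6, Ifitm2, Gpx3, Cyp1b1 and Rbp4, and the 5 furthest down Chrna3, Ctla2a, Stfa2l1, Rgs4 and Perp. Chrna3, a nicotinic receptor subunit, was at 2.88 ± 2.1 CPM in members and 71.7 ± 82.2 CPM in other Calca cells and lower, with a log2 difference of -4.08 ± 0.35 (adjusted p = 7.2e-09). Rgs4, which shortens G-protein signals, was at 38.1 ± 17.2 CPM in members and 485 ± 233 CPM in other Calca cells and lower, with a log2 difference of -3.60 ± 0.22. From P2rx3 cells the furthest were Ptchd1, Csf1, Ifitm2, Rbp4 and Tnfaip6 upward, and Stfa2l1, Ctla2a, Chrna3, Gzmbl3 and Perp downward.

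**Figure D4:**
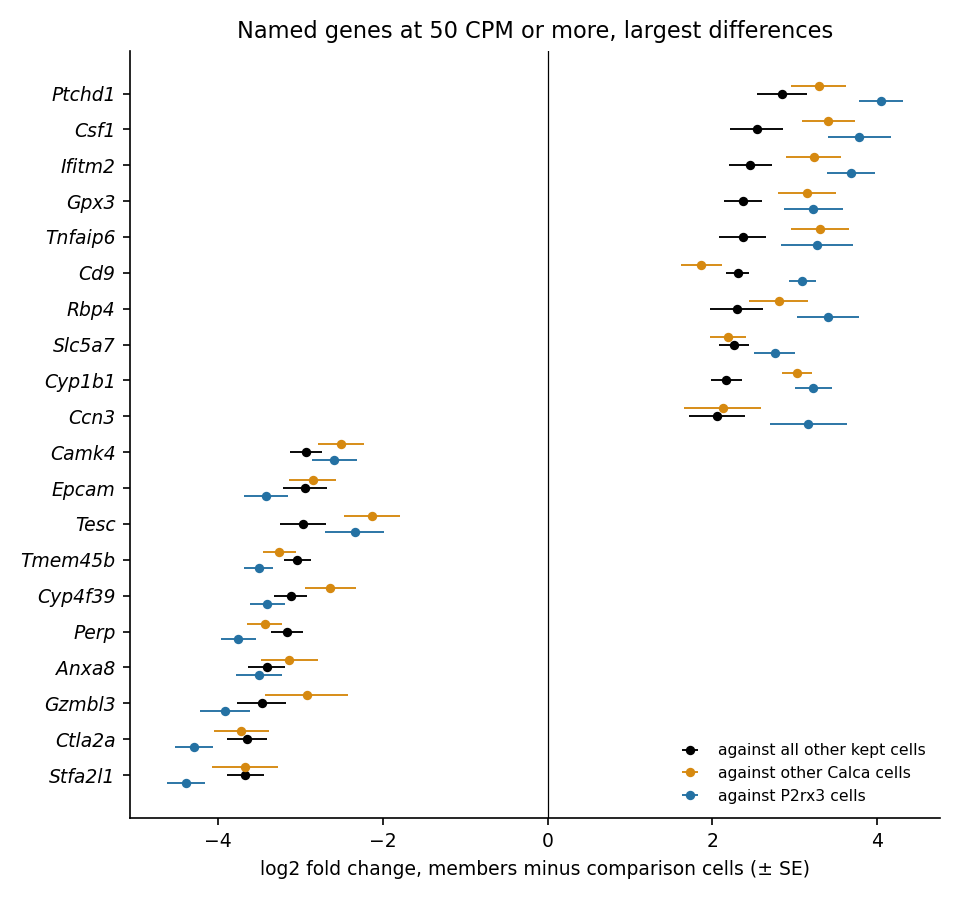
Log2 fold changes (± SE) of the 10 genes furthest up and the 10 furthest down between members and all other kept cells (black), among called genes at 50 CPM or more in the higher class and with the same sign in at least 80% of batches, with the same genes against other Calca cells (orange) and P2rx3 cells (blue); 15 batches each. Every gene lies on the same side of 0 in the 3 comparisons, which share the member sums.

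Members also differed among themselves, and this was described without a test. Each cell was thinned to 20000 UMIs and the squared coefficient of variation within batches was set against that of the 50 genes nearest in mean. Of 4174 genes at 50 CPM or more, S100a4, a calcium-binding protein, had the highest ratio, 11.6, with a median of 248 CPM and a 90th percentile of 1304 CPM. Cartpt, the precursor of the CART peptides, had a ratio of 11.2: 49 members had no UMI of it, 67 had 30 CPM or more and the highest had 1956 CPM. Cryab, a small heat-shock protein, followed at 8.86 and Vip, the precursor of vasoactive intestinal peptide, at 8.24, with 54.4 CPM at the 10th percentile and 1233 CPM at the 90th.

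Also named were Crip1, Gzmbl2, Ankrd1, S100a6, Anxa1, Tnfaip6, Pcp4, Mdk, Arg1, Mustn1 and Vim, at ratios of 4.88 to 7.66. The entries AABR07034239.1 and LOC102552182, with ratios in that range, have no gene symbol and were passed over. Tnfaip6, among the genes highest in members on the whole, had no UMI in 33 of 183 cells and a 90th percentile of 498 CPM. Batches shared unevenly in some of these: Cartpt averaged 10.7 CPM over the members of its lowest batch and 432 CPM in batch 28-1, which also had the highest mean of Cryab and Ankrd1. Few of the 10 members of batch 28-1 carried these means. Single cells there had 2610 CPM of Cryab, 1746 and 1882 CPM of Cartpt, and 2434 and 1113 CPM of Ankrd1. That batch had the lowest median depth of the members, 71824.5 UMIs, and its part in this was not tested.

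**Figure D5:**
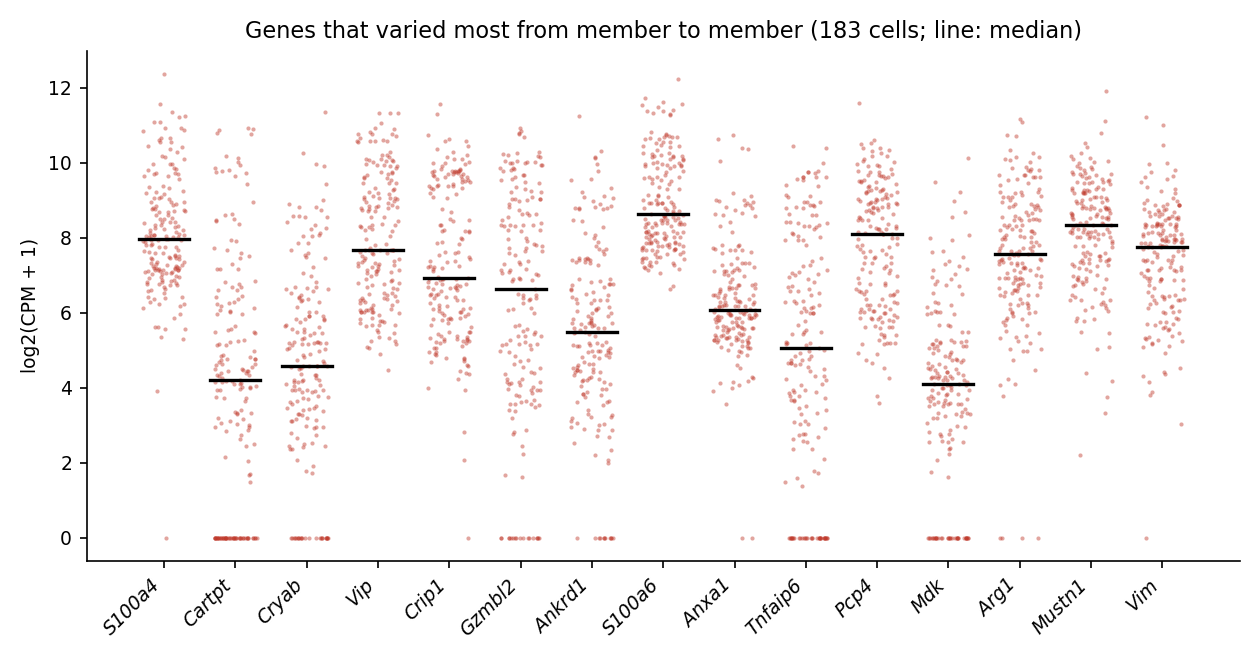
Expression of the 15 named variable genes in each of the 183 members as log2(CPM + 1), 1 point per cell with the median as a line. S100a4 and S100a6 are present in nearly all cells over a wide range, while Cartpt, Tnfaip6 and Mdk have cells at 0 beside cells above 1000 CPM.

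Among the variable genes S100a4 and its relative S100a6 went together across members, with a Spearman correlation of 0.49 after centring in batches (0.38 with thinned cells, 183 cells). Anxa1 and the growth factor Mdk gave 0.38 (0.28 thinned). Cells of a correlation share libraries and depth, and no p is given. For Tac1 the closest of 211 candidate genes were Scg2 (0.47, and 0.47 with depth removed), Adcyap1 (0.44 and 0.44), Calca (0.33 and 0.40), Scg5 and Chgb, all genes of peptides or their vesicles. The candidates were only genes of the lists used here, the named variable genes and the markers, at 50 CPM or more. Peptide and vesicle genes have lists of their own among these, so their place near Tac1 was partly set by that choice. Gal went against it, at -0.30 (-0.29 with depth removed).

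Among the genes closest to Nefh were Mcam, an adhesion molecule (0.40), the light neurofilament Nefl (0.38) and Asic3 (0.35), and with depth removed they were 0.41, 0.39 and 0.36. With thinned cells the same pairs fell to between 0.19 and 0.25. For Gal the closest were Stmn3 (0.61), Tubb3, Anxa2, Gap43 and Prph, all abundant genes that go down with depth (-0.83 to -0.90), and with depth removed they were 0.24 to 0.42. Trpv1, with no UMI in 118 members, ran from 0.27 with Trpv2 to -0.37 with Cst3, and with depth removed these were 0.19 and -0.28; no order is read from them.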

How the data were processed

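Single-neuron UMI counts per gene were deposited by the authors as 1 table per batch. Per the submitters' processing notes, UMI-tools, STAR, featureCounts, Subread and SAMtools were used with the build Rnor_6.0. Software versions, the counting's strand setting and each batch's plating time are not given in the sources used here. Batch 21's table (40 labelled cells) equals that of batch 20 and was not used, leaving 1040 cells in 16 batches; batch totals run from 3812280 to 26065847 UMIs. Every measured column was mapped to a batch (0 unmapped).

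Kept cells, members and classes follow the thresholds in the results. No doublet caller was run on the singly picked cells. UMIs were summed per batch and class (at least 3 cells; member sums hold 797845 to 5800166 UMIs) and tested with edgeR 4.0.16 (R 4.3.3): filterByExpr with a minimum count of 10, TMM scaling, a batch term that pairs the sums of a batch, the quasi-likelihood F-test and Benjamini-Hochberg adjustment over all genes tested, at 0.05. SE is the absolute log2 fold change over the square root of F. CPM of sums use the TMM-scaled totals. Clmp, Kit, Sst, Nppb, Trpm8, Ramp3, Asic3, Gda and Fcgrt were never tested, nor Calca and P2rx3 where they chose the comparison cells. The procedure was tested on simulated counts.

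The members and the gene lists were chosen with earlier results of these data known, and peptidergic genes helped to define the class from which Clmp and Kit were picked, so their direction, and that of Chrna3 and Crh, seen low there, is not independent evidence. Named genes are the 10 largest called differences per direction at 50 CPM or more and the same sign in at least 80% of batches (5 per direction in the narrower comparisons), up to 4 per list and direction by p, fixed genes of CGRP and nociceptors, and the 15 most variable genes with a symbol. Described with their own values outside this rule, after these were seen, were Runx1, Trpa1, Scn9a, Atf3, Gap43, Isl1 and Fos. Many other called genes of a list, such as Akt1, Scn3b and Gpr4, are also outside it and are named only beside the list's count. Genes in correlations were taken by the size of the correlation, among listed genes, named variable genes and markers at 50 CPM or more. Some genes the rule names are not reported here. Genes in antisense or overlapping pairs, and families with near-identical copies, may share reads. Alternatives were DESeq2 1.42.0, other scalings, filters and thresholds, limma 3.58.1 on log2(mean CPM per cell + 10), thinning to 20000 UMIs, depth-matched cells and leaving out each batch.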

Additional observations from a re-analysis of the deposited data

How the results depend on the processing

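The counts of called genes against all other kept cells, other Calca cells and P2rx3 cells were 3307, 1562 and 3349. They stayed within 1.5 times under RLE scaling, DESeq2, no filter on low counts, thresholds of 60 CPM and limma on mean CPM per cell, and without the batch pairing (no replicate block) they were 2553, 1303 and 2839. Leaving out each batch in turn gave 2855 to 3445, 1340 to 1769 and 2947 to 3381. With each cell thinned to 20000 UMIs, which leaves 6503, 3816 and 5300 genes to test, the counts were 1135, 614 and 1092. Pairs of members and comparison cells whose log2 UMI counts differed by at most 0.25, an alternative chosen after seeing the data that uses fewer cells, gave 2374, 714 and 2208. Limma on mean CPM per cell moved the split against other Calca cells from 732 higher and 830 lower to 1397 and 533, with the median of all genes tested at 0.11 in place of 0.03, and against P2rx3 cells from 1611 and 1738 to 1087 and 1979; the cause was not tested. The depth difference of 0.40 was 0.11 (permutation p = 0.301) among cells with at least 50000 UMIs. The share of members, 21.4%, was 16.3 to 23.9% under the other thresholds and with thinned cells, and 20.2 to 22.8% leaving out each batch. Of the values of single genes, counted only in the comparison whose rule named them, 4852 kept direction and side of the threshold, 134 no longer passed, 1 newly passed (Calcrl, 1.41 with depth-matched cells) and 4 changed sign, none of those 4 past the test in the main comparison: Ramp2, members against all other kept cells (-0.032 with limma, and -0.00759 as the lowest value leaving out 1 batch), Crcp (0.00052 with thinned cells) and Trpv1 (-0.12 with Clmp and Kit at 60 CPM). Outside that count, Gal passed against other Calca cells with depth-matched cells (0.73). The smallest member sum, 797845 UMIs, limits what sparse genes such as Calcrl can show.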
